A study of Mus with 12 samples.

Results

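The m6A peaks of 9 transcriptional corepressor genes were followed in mouse liver, namely Ncor1, Rcor1, Sin3a, Cir1, Rsf1, Tle1, Tle3, Tle4 and Hdac4, out of 7906 genes with a listed peak. They were chosen by name, with the presence of their peaks in the lists of both diets already known, so every value that sets one diet against the other is a description here and was given no test. The tested livers came from 3 male C57BL/6J mice on a high-fat diet (60% of energy from fat; HFD 1, HFD 4 and HFD 5) and were set against livers of 3 mice of the same strain, sex and age on a low-fat diet (10% of energy from fat; WT 1, WT 4 and WT 5). All mice were 6 weeks old at the start and were fed for 12 weeks, and no engineered allele is named in the methods, so WT names the control diet. GEO's diet tag reads HFD in all 12 samples, and the groups were therefore read from the descriptions that name HFD and WT libraries. MeRIP-seq pulls down RNA fragments with an antibody to m6A, and peaks mark where a transcript is enriched in the pulldown over the input RNA of the same liver.

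Corepressors are proteins that DNA-bound factors recruit to silence genes. NCOR1 docks on unliganded nuclear receptors and carries a deacetylase complex, SIN3A is a scaffold for class I histone deacetylases, and RCOR1 (CoREST) links such deacetylases to the lysine demethylase KDM1A. CIR1 bridges the Notch effector RBPJ to deacetylases, RSF1 is the histone-binding partner of the nucleosome remodeler SMARCA5, TLE1, TLE3 and TLE4 are among the mammalian Groucho proteins, and HDAC4 is a class IIa deacetylase that shuttles between cytoplasm and nucleus. In the liver, NCOR1 and its deacetylase are known for restraining lipid synthesis genes. m6A on the mRNA of a gene is placed by a methyltransferase complex and is read by proteins that act on splicing, decay and translation of that mRNA.

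All 9 genes had at least one m6A peak, and they held 185 of 68562 peaks. Peaks that overlapped by at least 1 base across the 6 lists were joined into regions, of which 51 of 18374 belonged to these genes. The 6 lists held between 10109 and 12966 peaks, each with a fold enrichment of at least 2 and a p-value score of at least 50, where the score is minus 10 times the log10 of the authors' p-value. The fold enrichment is the authors' ratio of pulldown to input within one liver. The authors' false discovery rate was high, with a median over the peaks of the 9 genes of 83.3% in HFD 1, 69.5% in WT 5 and between 99.6% and 100% in the other 4 lists. The read depth of the libraries is unknown, so a region without a listed peak may lack methylation, transcript or reads, and in whole liver fewer cells of a type and less RNA per cell cannot be told apart. Of 12 hepatocyte markers between 1 and 3 had a peak in a list, with none for Alb or Hnf4a, and a peak reports methylated RNA, not the level of expression. Of 14 skeletal muscle markers, 1 (Neb) had a peak in each HFD list and in WT 1, but 11 had one in WT 4 and 12 in WT 5. Of 6 adipocyte markers, 2 had a peak in WT 5 and none elsewhere, and of 6 lymphocyte markers 1 had a peak in each HFD list and none in a WT list. Macrophage (2 to 3 of 6), stellate cell (3 to 5 of 6), endothelial (4 to 6 of 6) and cholangiocyte markers (1 to 2 of 6) had peaks in all lists.

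Ncor1 carried by far the most peaks of the 9 genes. It had 12, 13 and 12 peaks in HFD 1, HFD 4 and HFD 5, against 11, 11 and 13 in WT 1, WT 4 and WT 5. Its 18 regions placed it among the 10 genes with the most regions of all 7906. Cir1 had 5, 4 and 3 peaks in HFD livers, against 5, 5 and 6 in WT livers, and Rsf1 had 4, 3 and 2 in HFD livers, against 3, 5 and 7 in WT livers. The counts of both genes overlapped between diets, and the highest Rsf1 count came from WT 5. Rcor1 had 1 peak in each HFD liver, against 2, 3 and 2 peaks in WT livers, and was the only one of the 9 genes whose counts did not overlap between the diets. How many of all 7906 genes have counts without overlap was not computed, so nothing is read from this. Sin3a had 4 peaks in each HFD liver, against 4, 5 and 4 in WT livers.

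**Figure D1:**
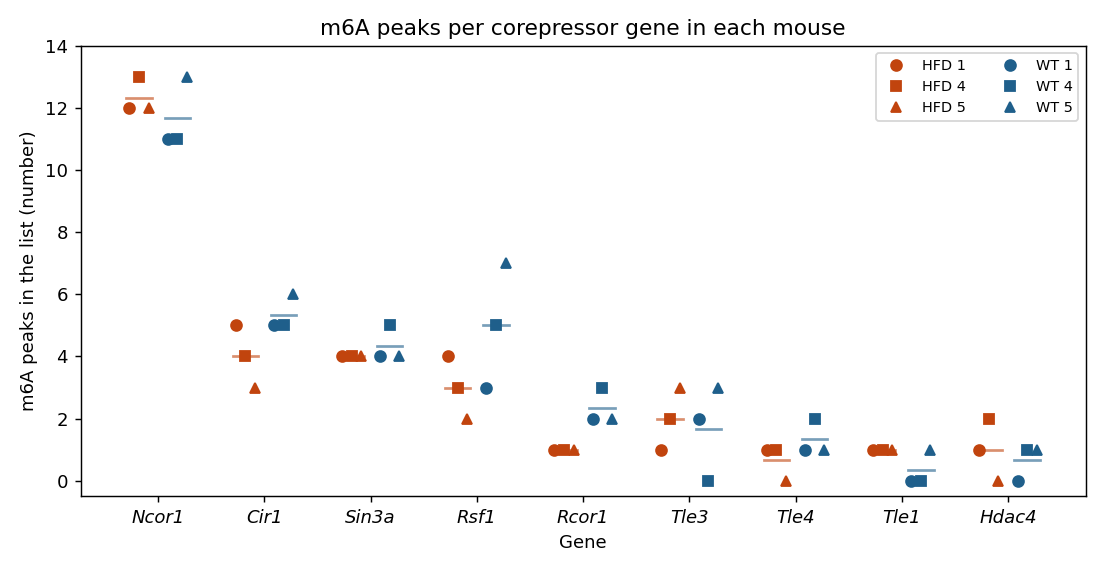
Number of m6A peaks (vertical axis) in each of the 9 corepressor genes (horizontal axis), with one point per mouse, HFD in orange left of WT in blue, and a line at each group mean. Ncor1 stands at 11 to 13 peaks in all 6 mice, and Rcor1 has 1 peak in every HFD mouse and 2 or 3 in every WT mouse.

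The Groucho genes Tle1, Tle3 and Tle4 and the gene Hdac4 had few peaks and were missing from some livers. Tle3 had 1, 2 and 3 peaks in HFD livers, against 2, 0 and 3 in WT livers. Tle4 had 1, 1 and 0 peaks in HFD livers, against 1, 2 and 1 in WT livers. Tle1 had 1 peak in each HFD liver, against 0, 0 and 1 in WT livers, and Hdac4 had 1, 2 and 0 in HFD livers, against 0, 1 and 1 in WT livers. The genes without a peak differed from liver to liver, as HFD 5 lacked Tle4 and Hdac4, WT 1 lacked Tle1 and Hdac4, and WT 4 lacked Tle1 and Tle3.

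Together the 9 genes held 30, 31 and 26 peaks in HFD 1, HFD 4 and HFD 5, against 28, 32 and 38 in WT 1, WT 4 and WT 5. The means were 29.0 ± 2.65 peaks in HFD livers and 32.7 ± 5.03 in WT livers (SD, n = 3 each), a difference of -3.67 that was smaller than the spread between WT livers. It was -2.17 without HFD 5, -6 without WT 1 and -1 without WT 5. The highest WT counts came from WT 4 and WT 5, the livers with skeletal muscle peaks. With WT 1, the shortest list (10109 peaks), as the only WT list, the difference turned to 1. The part of the skeletal muscle RNA in this difference was not tested. Per 1000 peaks of the list, the genes held 2.33, 2.60 and 2.53 peaks in HFD livers, against 2.77, 3.08 and 2.93 in WT livers, so that on this scale the diets did not overlap. How often other sets of genes separate in this way was not computed. As the members were chosen with their peaks in both diets known, nothing is read from it.

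Of the 51 regions, 17 (33.3%) had a peak in all 6 livers, close to the 34.0% of all 18374 regions, and 15 (29.4%) had a peak in a single liver, against 23.7% of all regions. The 17 constant regions lay in Ncor1 (8), Cir1 (3), Sin3a (3), Rsf1 (2) and Rcor1 (1), and Tle1, Tle3, Tle4 and Hdac4 had none. The regions in a single liver were weak, with a median fold enrichment of 5.11 and a median score of 65.3, near the list minimum of 50. Found in more HFD than WT livers were 13 regions (25.5%, against 29.9% of all regions), found in more WT than HFD livers were 18 (35.3%, against 23.2%), and 20 were balanced. The livers with skeletal muscle peaks, WT 4 and WT 5, enter the second count, and 10 regions (19.6%) were found in WT 4, WT 5 or both and in no other liver, against 10.5% of all regions. With WT 1 as the only WT list, 13 regions were found in a larger share of HFD lists and 8 in a larger share of WT lists. This setting puts 3 HFD lists against 1 WT list and drops regions found only in WT 4 or WT 5. Its counts are thus not comparable with those over 6 lists. The share over all regions was not computed, and nothing is read from their order. The part of the skeletal muscle RNA in the counts over 6 lists was not tested.

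**Figure D2:**
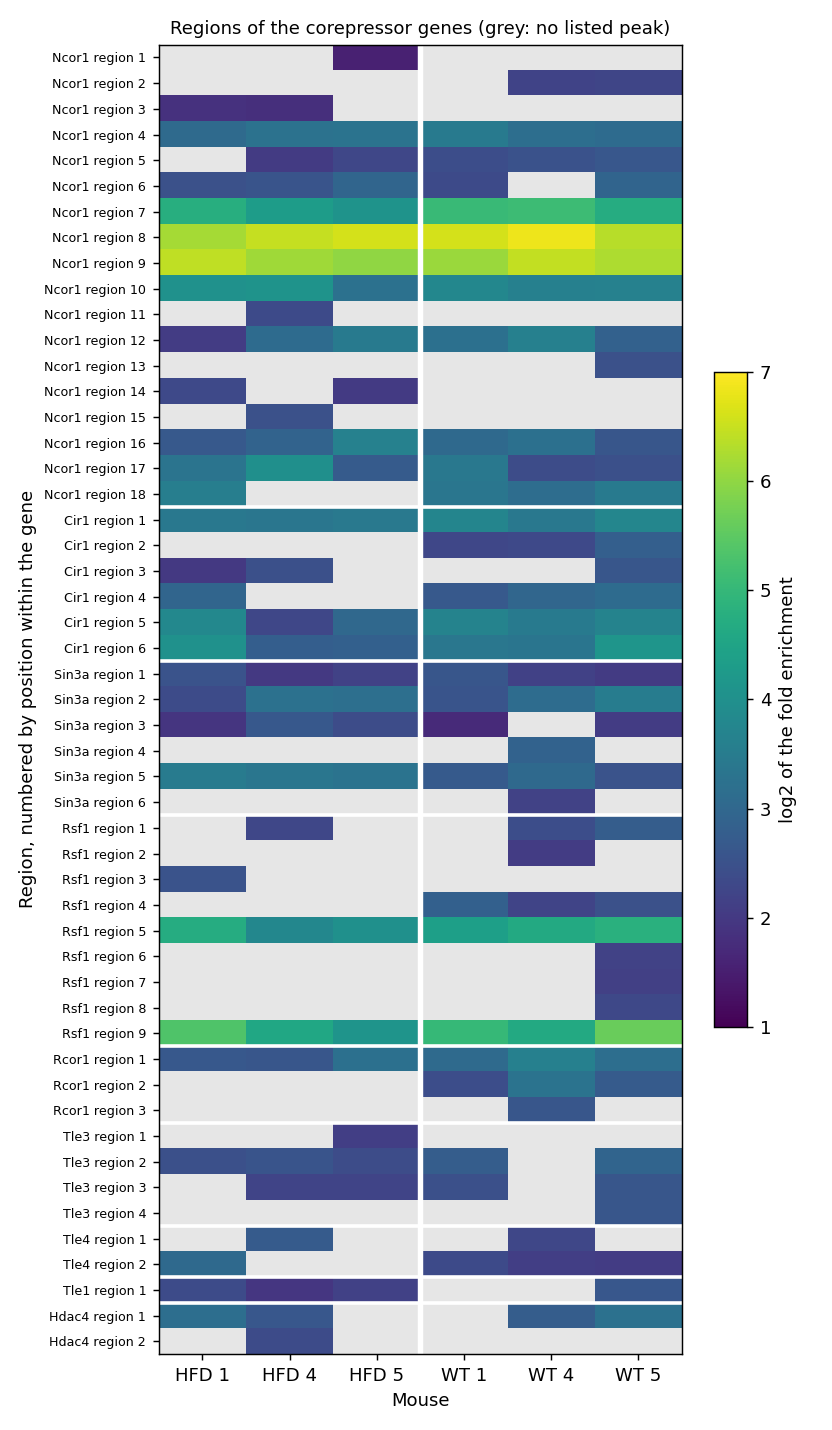
Fold enrichment (colour, log2 scale) of the 51 regions (rows, numbered by position within each gene) in the 6 mice (columns, HFD left of WT), with grey where no peak was listed. Ncor1 regions 8 and 9 are the brightest rows in every mouse, and Cir1 region 2, Rsf1 region 4 and Rcor1 region 2 are filled in all WT mice and in no HFD mouse.

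The listed peaks of these genes often had the same ends in different livers, as did those of most regions in the series. What sets the ends of a listed peak was not tested, so shared ends are not read as the same methylated bases. Among the 36 regions found in at least 2 livers, all peaks had the same first and last base in 29 (80.6%), against 61.3% of the 14019 such regions overall. The 7 exceptions were Ncor1 region 14, Cir1 regions 1 and 4, Rsf1 regions 1, 5 and 9 and Tle1 region 1. Regions had a median length of 195 bases, against 258 over all regions, and ran from 35 bases (Rsf1 region 3) to 1769 bases (Rsf1 region 5).

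Ncor1, GeneID 20185, spans 142 kb on chromosome 11 in GRCm38 (62315663 to 62457414), and its strongest peaks sat side by side near the middle of this span. Region 8 (chr11:62384718-62384845) had a fold enrichment of 72.5, 88.4 and 98.5 in HFD 1, HFD 4 and HFD 5, against 98.7, 115.7 and 81.6 in WT 1, WT 4 and WT 5. Region 9 (chr11:62389691-62389792) had 85.4, 70.8 and 64.6 in HFD livers, against 68.6, 87.5 and 76.8 in WT livers. The diets overlapped at both, and both lay above the 99th percentile of every list. Which of the pair was stronger varied between livers. The ratio of region 8 to region 9 was 0.850, 1.25 and 1.53 in HFD livers, against 1.44, 1.32 and 1.06 in WT livers.

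Region 7 of Ncor1 (chr11:62383161-62383375), the third strongest, had a fold enrichment of 27.3, 20.1 and 17.0 in HFD livers, against 33.8, 34.5 and 26.4 in WT livers. WT 5 fell just below HFD 1, so the deposited values overlapped. The other 5 constant regions were weaker: region 4 (median 9.28), region 10 (13.1), region 12 (8.94), region 16 (7.92) and region 17 (8.20). Of these, region 17 (chr11:62419598-62419780) had the largest difference between diets, with 9.86, 15.97 and 6.55 in HFD livers, against 10.7, 5.30 and 5.50 in WT livers, and still overlapped.

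**Figure D3:**
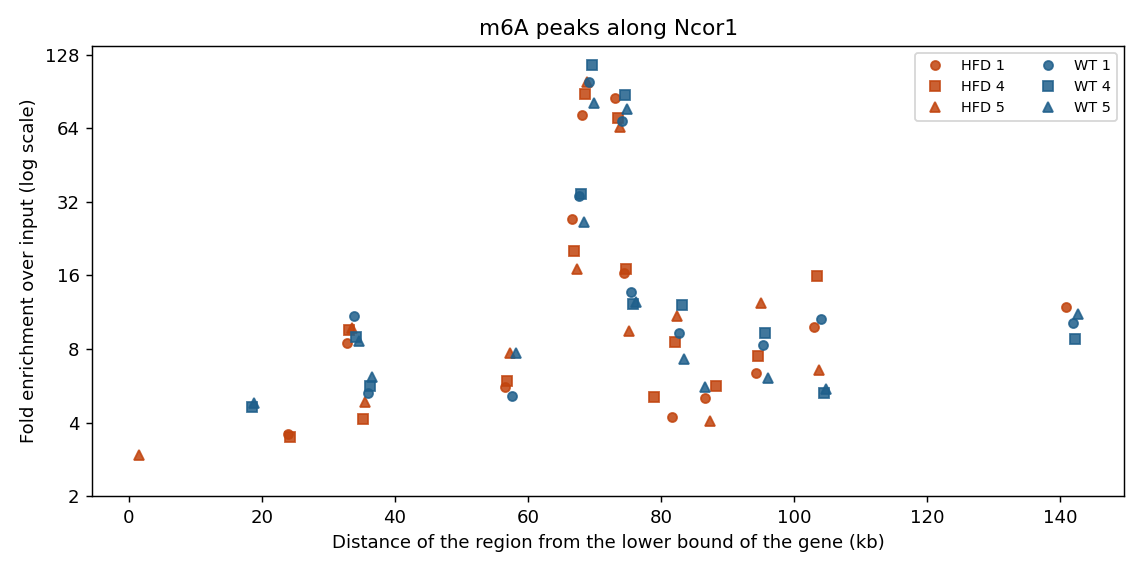
Fold enrichment over input (vertical axis, log scale) of each Ncor1 region against its distance from the lower bound of the gene (horizontal axis, kb), with HFD mice in orange and WT mice in blue, and points of one region spread sideways. The 3 strongest regions lie between 67.5 and 74.0 kb, at 17.0 to 116 fold, and the deposited values of the diets overlap at all 3.

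Several weak Ncor1 regions came and went between livers. Regions 3 and 14 were found in HFD livers alone. Region 3 (chr11:62340408-62340629) had a fold enrichment of 3.60 in HFD 1 and 3.51 in HFD 4, and region 14 (chr11:62403241-62403462) had 5.04 in HFD 1 and 4.08 in HFD 5. Region 2 (chr11:62333663-62334156) had 4.62 in WT 4 and 4.80 in WT 5, the livers with skeletal muscle peaks, and was found in no other. Regions 1, 11 and 15 were found in 1 HFD liver each and region 13 in WT 5 alone. Region 18 (chr11:62457436-62457806), listed in HFD 1 at 11.9 and in the WT livers at 10.2, 8.83 and 11.1, lies beyond the upper RefSeq bound of the gene, and region 1 overlaps the neighbour Ttc19.

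Rcor1, GeneID 217864 (chromosome 12, 111039367 to 111115902), had 3 regions close to each other, and the HFD livers had only the first. Region 1 (chr12:111099920-111100038) had a fold enrichment of 6.30, 6.12 and 9.32 in HFD livers, against 8.45, 12.3 and 8.98 in WT livers. Region 2 (chr12:111101630-111101708), a stretch of 79 bases, had no peak in an HFD liver and had 5.31, 9.74 and 6.64 in WT 1, WT 4 and WT 5. The scores of region 2 were 83.4, 163 and 170 in the WT lists, above the minimum of 50. Region 3 (chr12:111103611-111103805) had a single peak, at 6.13 in WT 4.

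Cir1, GeneID 66935 (chromosome 2, 73283872 to 73312592), had a similar region. Region 2 (chr2:73286338-73286423) had no peak in an HFD liver and had a fold enrichment of 4.86, 5.04 and 6.99 in WT 1, WT 4 and WT 5, with scores of 97.8, 67.5 and 126. The neighbouring region 3 (chr2:73287609-73287715) was found in more HFD livers, with 3.96 and 5.55 in HFD 1 and HFD 4, against 6.12 in WT 5. Region 4 (chr2:73305902-73306341) had 7.74 in HFD 1 alone among HFD livers, against 6.43, 7.89 and 8.57 in WT livers. Of these weaker regions, region 2 alone was present in every liver of one diet and absent from the other.

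The constant regions of Cir1 lay at both ends of the gene. Region 1 (chr2:73283937-73285035) had a fold enrichment of 10.6, 10.3 and 10.7 in HFD livers, against 13.3, 10.7 and 13.4 in WT livers, nearly the same in every HFD liver. Region 5 (chr2:73310457-73310551) had 14.1, 4.87 and 8.16 in HFD livers, against 12.9, 11.1 and 12.8 in WT livers. As deposited, HFD 4 and HFD 5 lay below and HFD 1 above the WT values. On the centred log2 scale defined further below, HFD 1 (0.24) lay below WT 1 (0.40). Region 6 (chr2:73312417-73312701) had 16.4, 6.89 and 7.16 in HFD livers, against 10.4, 10.1 and 17.4 in WT livers, and 109 of its bases lie beyond the RefSeq bound of Cir1 and overlap the neighbour Scrn3. The lists give no strand, so reads of both genes cannot be told apart there.

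Rsf1, GeneID 233532 (chromosome 7, 97579870 to 97692782), had 9 regions, of which 6 were found in more WT than HFD livers. Region 4 (chr7:97653053-97653207) had no peak in an HFD liver and had a fold enrichment of 7.12, 4.70 and 5.60 in WT 1, WT 4 and WT 5. The score in WT 4 was 51.6, just above the list minimum. Regions 6, 7 and 8 had a peak in WT 5 alone and region 2 in WT 4 alone, at 4.20 to 4.90, and region 3 had one in HFD 1 alone, at 5.76. Regions 2 to 9 overlap the genes Rsf1os1 and Rsf1os2 in the annotation, and without strand the reads of these cannot be separated.

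The bulk of the Rsf1 signal was in a pair of long regions found in every liver. Region 5 (chr7:97660813-97662581) had a fold enrichment of 26.5, 13.6 and 16.2 in HFD livers, against 21.0, 25.2 and 28.2 in WT livers. In HFD 1 it was split into a pair of peaks, of which the stronger was used. Region 9 (chr7:97685425-97686522) had 40.5, 23.9 and 17.1 in HFD livers, against 32.7, 25.1 and 49.6 in WT livers. At both regions HFD 4 and HFD 5 lay below every WT liver and HFD 1 did not.

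Sin3a, GeneID 20466 (chromosome 9, 57071991 to 57128368), held the only constant region with every HFD value above every WT value. Region 5 (chr9:57125169-57125376) had a fold enrichment of 11.3, 10.3 and 9.80 in HFD livers, against 6.51, 8.34 and 5.84 in WT livers. Region 1 (chr9:57096722-57096973) had 5.80, 4.02 and 4.53 in HFD livers, against 6.10, 4.47 and 4.15 in WT livers. Region 2 (chr9:57108708-57108891) had 5.16, 9.48 and 9.15 in HFD livers, against 5.89, 8.77 and 11.4 in WT livers. Both overlapped between diets. Region 3 had a peak in all livers except WT 4, and regions 4 and 6 had one in WT 4 alone.

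Among the Groucho genes, Tle1 (GeneID 21885, chromosome 4) had a single region (chr4:72117704-72118391), at 5.14, 3.84 and 4.48 in HFD livers and at 6.16 in WT 5, with no peak in WT 1 and WT 4. The one WT value was thus higher than all HFD values. Tle3 (GeneID 21887, chromosome 9) had 5.50, 5.85 and 5.22 in HFD livers, against 6.84 in WT 1 and 7.70 in WT 5, at region 2 (chr9:61401853-61402057). Region 3 of Tle3 (chr9:61408766-61408918) had 4.70 and 4.66 in HFD 4 and HFD 5, against 5.56 and 6.06 in WT 1 and WT 5. Where a peak was listed, regions 2 and 3 of Tle3 were thus higher in WT livers, but WT 4 had no Tle3 peak at all. The share of all regions with such a pattern was not computed. Region 1 of Tle3 was found in HFD 5 alone and region 4 in WT 5 alone. Tle4 (GeneID 21888, chromosome 19) had 8.28 in HFD 1 at region 2 (chr19:14517772-14517976), against 5.08, 4.31 and 4.17 in WT livers, and 6.55 in HFD 4 against 4.83 in WT 4 at region 1 (chr19:14468152-14468271). The genes therefore differed among themselves, Tle1 being listed in more HFD livers and Tle4 region 2 in more WT livers.

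Hdac4 (GeneID 208727, chromosome 1) spans 267 kb, the longest of the 9 genes, and had 2 regions. Region 1 (chr1:91932749-91933386) had a fold enrichment of 9.05 and 6.21 in HFD 1 and HFD 4, against 6.77 and 9.50 in WT 4 and WT 5. The values overlapped, and the livers without a peak were one of each diet. Region 2 was found in HFD 4 alone, at 5.21. The fold enrichment is a ratio within a peak, and how far it depends on input coverage was not tested. A gene with more regions also has more values from which its strongest is taken, as Ncor1 (18 regions) against Tle1 (1 region). The order given next therefore only describes the listed values. In the order of their strongest regions by median fold enrichment, the genes ran from Ncor1 region 8 (93.5, range 72.5 to 116) to Rsf1 region 9 (28.9, 17.1 to 49.6), Cir1 region 5 (11.9, 4.87 to 14.1), Sin3a region 5 (9.07, 5.84 to 11.3), Rcor1 region 1 (8.72, 6.12 to 12.3), Hdac4 region 1 (7.91, 6.21 to 9.50), Tle3 region 4 (6.06, WT 5 alone), Tle4 region 1 (5.69, 4.83 to 6.55) and Tle1 (4.81, 3.84 to 6.16). The ranges of Ncor1 and Rsf1 stood clear of those below them, those from Cir1 to Hdac4 overlapped with their neighbours, and so did those from Tle3 to Tle1.

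To set diets side by side at the 17 constant regions, the log2 fold enrichment of each list was centred on its median over the 6245 regions found in every liver. This median was 11.9, 10.4 and 9.32 fold in HFD livers, against 9.73, 9.49 and 11.4 in WT livers. The HFD minus WT difference was negative at 13 of the 17 regions (76.5%), against 53.1% of the 6245 regions. Its median was -0.23 on the log2 scale, with quartiles at -0.47 and -0.08, against a median of -0.02 and quartiles at -0.21 and 0.17 over all 6245 regions. It was -0.14 without HFD 1 and -0.094 without WT 4.

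One member region of the 17, Sin3a region 5, had every HFD value above every WT value, a pattern seen in 4.48% of the 6245 regions, and one, Ncor1 region 7, had every WT value above every HFD value, a pattern seen in 5.09%. At Sin3a region 5 the centred log2 values were -0.07, -0.03 and 0.07 in HFD livers, against -0.58, -0.19 and -0.97 in WT livers, a difference of 0.57. At Ncor1 region 7 they were 1.20, 0.94 and 0.87 in HFD livers, against 1.80, 1.86 and 1.21 in WT livers, a difference of -0.62, and the gap between HFD 1 and WT 5 was very small. Regions with every WT value higher numbered 6 without HFD 1, 3 without HFD 5, 2 without WT 1 and 3 without WT 4, and regions with every HFD value higher numbered 2 without WT 1. Full separation is easier to meet with fewer lists. The shares over all regions were not computed for these settings, so nothing is read from the higher counts.

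**Figure D4:**
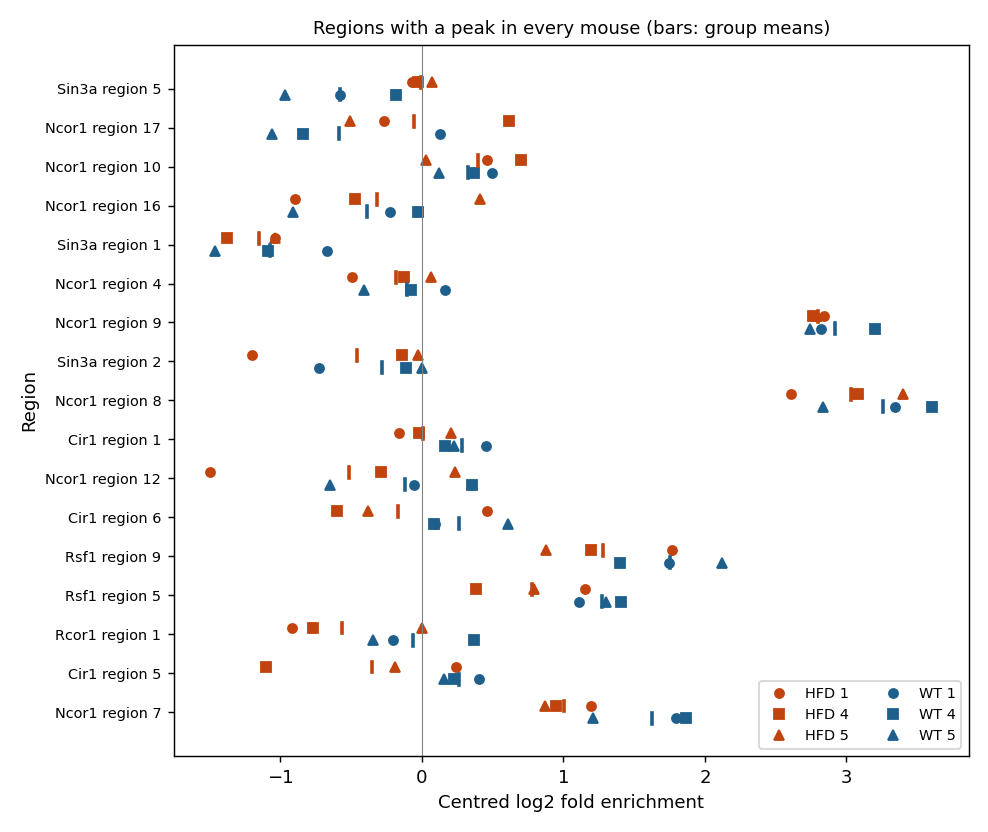
Centred log2 fold enrichment (horizontal axis; 0 is the median of the list over regions found in every liver) of the 17 regions with a peak in every mouse, with HFD mice in orange above WT mice in blue and a bar at each group mean. Regions are ordered by the HFD minus WT difference, from 0.57 for Sin3a region 5 to -0.62 for Ncor1 region 7, and only these 2 rows have no overlap between the diets.

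Regions present in one diet alone were few. Of the 51 regions, 0 had a peak in all 3 HFD livers and in no WT liver, a pattern seen in 0.718% of all 18374 regions. The opposite pattern was shown by 3 regions, Cir1 region 2, Rsf1 region 4 and Rcor1 region 2, and was seen in 0.294% of all regions. Since the members were chosen with these patterns known, nothing is read from the comparison of the counts. All 3 were also listed in WT 1, where 1 of the 14 skeletal muscle markers had a peak. The part of the skeletal muscle RNA in these regions was not tested. With a peak in at least 2 livers of one diet asked for, there were 2 HFD regions (Ncor1 regions 3 and 14; 3.96% of all regions) and 4 WT regions (the 3 above and Ncor1 region 2; 2.74% of all regions). The 3 WT-only regions had 4.70 to 9.74 fold, the highest being Rcor1 region 2 in WT 4, above the median of 7.48 of that list, and 0 WT-only regions were left when peaks below the median of their own list were dropped. WT-only regions numbered 6 without HFD 1, and HFD-only regions numbered 1 without HFD 4, without HFD 5 or without WT 5. The shares over all regions with a list left out were not computed, and nothing is read from these counts.

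Other corepressors and their partners, a list of 67 genes, gave a wider view of these complexes. Of these, 55 had a peak, and they held 181 regions, of which 72 (39.8%) were found in all 6 livers. Found in more HFD livers were 52 regions (28.7%, against 29.9% of all regions), in more WT livers 30 (16.6%, against 23.2%), and 99 were balanced (54.7%, against 46.9%). The median difference at the 72 constant regions was -0.04 on the centred log2 scale. A peak in all HFD livers and no WT liver was found in 2 of the 181 regions, a pattern seen in 0.718% of all 18374 regions. These were regions of Sap30l and Brms1, which encode subunits of SIN3 complexes. The opposite pattern is not reported here, and nothing is read from the count.

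The Sap30l region (chr11:57809942-57810615) had a fold enrichment of 3.18, 4.06 and 3.39 in HFD livers, and the Brms1 region (chr19:5048509-5048573) had 7.33, 6.78 and 4.66. In 2 livers of one diet alone were a region of Phf21a, a CoREST complex subunit, at 5.88 and 5.16 in HFD 4 and HFD 5, and one of Hmg20b, another subunit, at 3.09 and 4.52 in WT 4 and WT 5. Of the 72 constant regions, 4 (5.56%) had every HFD value higher, against 4.48% of the 6245 regions, and 4 (5.56%) every WT value higher, against 5.09%. A region with every HFD value higher was that of Rbpj (chr5:53590486-53590724), the Notch effector bound by CIR1, named after its values were seen, with 15.5, 11.9 and 7.66 in HFD livers, against 3.82, 4.37 and 5.60 in WT livers. Its centred log2 difference of 1.26 was the largest among the regions with every HFD value higher. Among the others were a region of Suds3 (chr5:117115672-117115993, 0.27) and another region of Brms1 (chr19:5045893-5046038, 0.38), also named after their values were seen. The regions with every WT value higher, likewise named after their values were seen, were those of Snw1 (-0.22), Kdm5a (-0.48), Ski (-0.36) and Skil (-0.22). Rcor2, Hdac3, Hdac9, Gps2, Sin3b, Rbbp4, Tle6, Mta2, Ctbp1, Trim28, Nab2 and Runx1t1 had no listed peak in any liver.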

How the data were processed

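Peak lists of 6 m6A immunoprecipitates from mouse liver (3 HFD, 3 WT) were analysed. The 6 inputs were not analysed here. The authors called peaks in each mouse against its input. Tools listed in the submitters' processing notes are MACS2 2.1.0, Bowtie 1.1.2, Trimmomatic 0.33 and bcl2fastq 2.17. The notes give the human build hg38, whereas genes and positions are those of mouse GRCm38. The deposited fold enrichment is a ratio of immunoprecipitate to input, with no scaling between libraries. The deposited p-value score is minus 10 times the log10 of the p-value, and the false discovery rate was deposited by the authors and read as a percent. No source used here gives the depth.

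Coordinates count from 1. Peaks were joined where they overlapped by at least 1 base, and a region took the highest fold enrichment of each list. Gene bounds came from RefSeq (GRCm38.p6), matched by symbol for all 9 genes. Separate mice are the replicates, and with members chosen on the same contrast no test was run. The members and gene lists were chosen with earlier results of these data known. Named were the 9 members, partner genes with a region in at least 2 livers of one diet alone, and each member region in at least 2 livers of one diet alone, without overlap of the diets, or strongest in its gene. Rbpj, Suds3, Snw1, Kdm5a, Ski, Skil and the Brms1 region with every HFD value higher were named after their values were seen. The list of partners held 68 symbols, of which Aes and Tle5 are one gene, and the values of 1 of its genes are not reported here. Alternatives changed the overlap, the peak threshold, the list length, the scaling and the libraries. The region counts and centring were tested on simulated lists. Python 3.11.15, numpy 2.4.6 and pandas 2.3.3 were used.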

Additional observations from a re-analysis of the deposited data

How the results depend on the processing

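Of 111 values recomputed under alternatives, 83 stayed within 1.5 times the count or within the spread between replicates and 27 moved, and 1, in percentiles of the list, could be compared by direction only and kept it. With peaks below their list's median fold enrichment dropped, there were 22 regions of the 9 genes, 8 in all lists, 0 in WT livers alone, 4 in more HFD and 6 in more WT lists, and 0 with every HFD value higher. With lists of equal length (10109 peaks each), 7 regions were in more HFD lists and the median log2 difference was -0.11. Without centring, 0 regions had every WT value higher. With at least 2 of 3 livers asked for, 2 regions were found in HFD livers alone. With WT 1 as the only WT list, an alternative added after the data were seen, 1 region was found in HFD livers alone, 8 were in a larger share of WT lists, the difference in peaks was 1, the median log2 difference was -0.33 and 6 regions had the WT value above every HFD value. With each library left out in turn, HFD-only regions numbered 0 to 1, WT-only regions 3 to 6, regions with every HFD value higher 1 to 2 and those with every WT value higher 1 to 6, and the median log2 difference ran from -0.33 to -0.094. Counts of presence in one diet or of separation are easier to reach with fewer lists. Their shares over all regions were not computed for settings with fewer lists, so nothing is read from such counts. No paired analysis was possible because no result comes from a test, and the HFD and WT mice are different animals that share only a number. The planned share of regions with a GGACT or GGAC motif was not run, as no genome sequence was used here. Depth limits detection of weak peaks and is unknown.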
